A study of Mus musculus with 46 samples.

Results

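The measurements concern how the diet labelled HFD, set against the diet labelled RFD, changed RNA in pancreatic islets of Clec16a KO mice. The labels do not write out either diet name, nor do they say how the knockout was made or which cells lost the gene. The comparison was chosen by the labels: 5 libraries of Clec16a KO islets on HFD against 4 of Clec16a KO islets on RFD, which is 9 of the 19 Clec16a libraries and of the 46 libraries of the series. The 10 other Clec16a libraries are the matching controls, labelled Clec control, with 6 on HFD and 4 on RFD. All islets were held in culture overnight before total RNA was taken, and the labels call the libraries biological replicates. Age and time on the diet are not given in the labels. The design text names both sexes without saying which library is which. Xist read 302 to 474 CPM (counts scaled to the library's total) in the 9 KO libraries and 4 Y-linked genes together gave at most 1 count, so all 9 read as female.

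CLEC16A is an endosomal membrane protein that takes part in mitophagy, the removal of damaged mitochondria by autophagy, and its human gene lies at a type 1 diabetes susceptibility locus. Islets hold mainly beta cells, which secrete insulin, beside alpha cells (glucagon), delta cells (somatostatin) and PP cells, and isolated islets carry some exocrine acinar tissue with them. Beta cells read glucose through its metabolism. One branch of that response runs through the transcription factor ChREBP, encoded by Mlxipl, which binds paired E-box sequences called carbohydrate response elements, and Txnip and Arrdc4 are its best known targets.

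Depth ran from 16235173 to 55810879 counts per KO library and from 19714 to 22400 detected genes, and the insulin genes took 13.4% to 23.04% of counts, so the tissue read as islet. Clec16a itself, on chromosome 16 from 10545339 to 10744878 (GRCm38), gave 28.6, 27.6, 27.8, 23.6 and 32.9 CPM in KO HFD libraries 1 to 5 and 23.4, 26.9, 25.7 and 30.04 CPM in KO RFD libraries 1 to 4. Control libraries gave 20.9 to 31.8 CPM, the same range. The count over the whole gene therefore does not check the KO label, and the deleted part of the gene is not given in the sources used here.

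Library KO HFD 4 stood apart from the other 4. Of 17254 tested genes, 1298 (7.52%) passed the test between KO and control on RFD, and over those genes KO HFD 4 lay at a median 16.3% of the way from the control RFD mean to the KO RFD mean. Libraries KO HFD 1, 2, 3 and 5 lay at 113%, 107%, 110% and 101%, and the 6 control HFD libraries at -2.90% to 22.7%. KO HFD 4 was nearer to control RFD than to KO RFD in 1057 of the 1298 genes, while the other KO HFD libraries were so in 69 to 134. Its place was thus inside the range of the control libraries. It is called the library labelled KO HFD 4 here, and the diet comparison was run with it (9 KO libraries) and without it (8 KO libraries). Some lists and many genes are given from 1 of these fits only, among them genes called only without it.

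**Figure D1:**
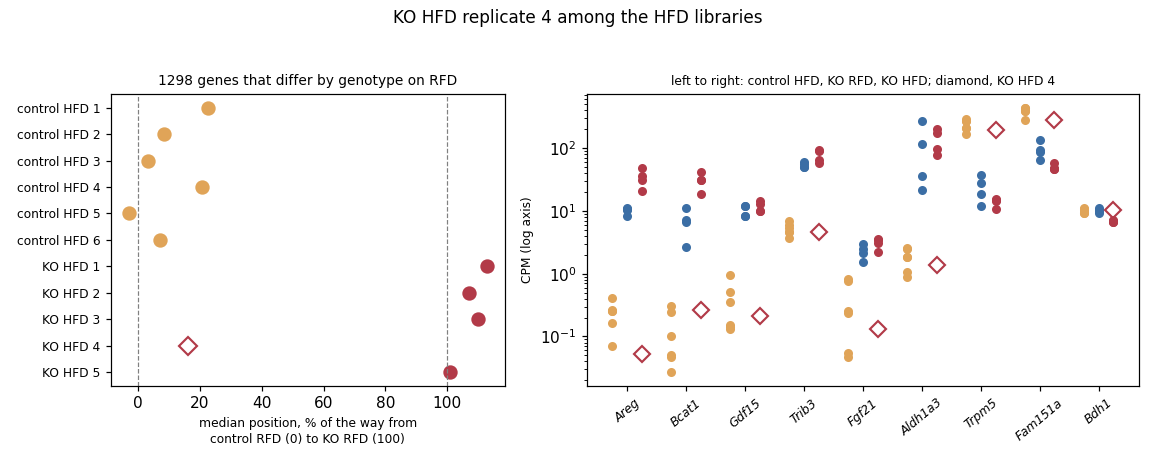
Left, the median position (x axis) of each HFD library (rows) over the 1298 genes that differ by genotype on RFD, as percent of the way from the control RFD mean (0) to the KO RFD mean (100). Right, CPM of 9 genes in each library on a log axis for control HFD, KO RFD and KO HFD. The open diamond, KO HFD 4, lies at 16.3% and beside the control HFD points, while the other KO HFD libraries lie at 101% to 113%.

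Among the genes that mark the KO islets, the library labelled KO HFD 4 read at control level. Gdf15, a secreted stress cytokine, gave 10.04, 14.1, 9.88, 0.209 and 13.1 CPM in KO HFD 1 to 5, 8.31 to 12.2 CPM in KO RFD and 0.134 to 0.940 CPM in control HFD. Trib3, a pseudokinase of the integrated stress response, gave 92.7, 88.9, 58.1, 4.69 and 65.4 CPM against 49.5 to 59.6 CPM in KO RFD and 3.64 to 6.98 CPM in control HFD. Trpm5, a cation channel of mature beta cells, went the other way, with 14.8, 15.4, 10.7, 191 and 14.5 CPM against 12.0 to 37.0 CPM in KO RFD. In all 3 genes only the fourth library fell outside the other KO values and inside, or close to, the control range. Aldh1a3, a retinaldehyde dehydrogenase that marks dedifferentiated beta cells, gave 199, 96.8, 175, 1.36 and 76.6 CPM in KO HFD and 21.4, 267, 36.6 and 116 CPM in KO RFD, so the KO libraries overlapped widely apart from that 1.

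With all 9 KO libraries, HFD lowered 2 genes and raised none at an adjusted p of 0.05 or less (edgeR's quasi-likelihood test with Benjamini-Hochberg adjustment), which is 0.0116% of the 17254 tested. Lama2 and Gm5771 fell, and both also fell in the control islets. At an unadjusted p under 0.05 the same test gave 511 genes higher and 435 lower, together 5.48% of those tested. The groups of 5 and 4 libraries did not overlap in 1.29% of genes, 128 higher (0.742%) and 94 lower (0.545%).

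Lama2, the laminin alpha-2 chain of basement membranes, lies on chromosome 10 from 26980036 to 27619758. It gave 2.72, 2.89, 4.46, 4.06 and 2.73 CPM in KO HFD 1 to 5 and 10.9, 12.9, 7.20 and 6.12 CPM in KO RFD 1 to 4. The groups did not overlap and KO HFD 4 was low with its group. The log2 fold change was -1.43 ± 0.21 (SE, adjusted p = 0.0173), and -1.50 ± 0.23 without KO HFD 4 (adjusted p = 0.00823). Control islets gave 2.29 to 3.38 CPM on HFD and 6.98 to 9.88 CPM on RFD, a log2 fold change of -1.57 ± 0.20 (adjusted p = 0.00151).

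Gm5771, a trypsinogen-like gene of the trypsin cluster on chromosome 6 (41392356 to 41397230), gave 2.30, 1.58, 2.25, 0.262 and 1.22 CPM on HFD against 17.5, 39.8, 6.09 and 15.1 CPM on RFD. Every HFD library was below every RFD library. The log2 fold change was -3.68 ± 0.56 (adjusted p = 0.0173), -3.38 ± 0.52 without KO HFD 4 and -4.10 ± 0.58 in controls. Prss3, a neighbouring trypsinogen, gave 2.53, 2.67, 3.63, 1.34 and 4.74 CPM against 12.6, 20.03, 8.14 and 28.1 CPM, also with no overlap. This made a log2 fold change of -2.55 ± 0.45 with an adjusted p of 0.0523, and -2.35 ± 0.45 with 0.0413 without KO HFD 4. Trypsinogen genes of this cluster are close copies, so reads could be split between them and each value is uncertain to that extent.

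Another 4 genes lay next to the threshold with all 9 libraries and passed it once KO HFD 4 was left out. Eef1a2, a translation elongation factor of neurons and muscle, gave 36.2, 40.9, 33.4, 32.6 and 34.7 CPM on HFD and 63.5, 57.3, 71.8 and 50.8 CPM on RFD, with no overlap. This was a log2 fold change of -0.78 ± 0.13 (adjusted p = 0.0523; 0.0366 without KO HFD 4). Egflam, or pikachurin, a matrix protein that binds dystroglycan as laminins do, gave 12.0, 12.3, 10.46, 11.7 and 8.38 CPM against 22.4, 15.7, 19.2 and 15.8 CPM, and its log2 fold change was -0.73 ± 0.13 (0.0523 and 0.0366). Both groups were again apart, with KO HFD 4 among the low libraries.

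Vwde, named for its von Willebrand factor D and EGF domains, gave 20.6, 20.3, 24.99, 34.4 and 26.001 CPM on HFD and 48.8, 47.0, 45.4 and 43.2 CPM on RFD. KO HFD 4 was the highest of its group but still below every RFD library, and the log2 fold change was -0.86 ± 0.15 with it (adjusted p = 0.0523) and -1.002 ± 0.14 without it (0.00823). Ttr, transthyretin, a carrier of thyroxine and retinol that alpha cells make in quantity, gave 3100, 2457, 2072, 2384 and 2702 CPM against 4246, 6494, 4930 and 4843 CPM. Its log2 fold change was -1.01 ± 0.18 (0.0523; 0.0435 without KO HFD 4). C8b, a chain of the complement membrane attack complex, gave 58.9 to 86.7 CPM against 89.8 to 129 CPM and a log2 fold change of -0.62 ± 0.12, with an adjusted p of 0.0926 with all libraries and 0.0531 without KO HFD 4.

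**Figure D2:**
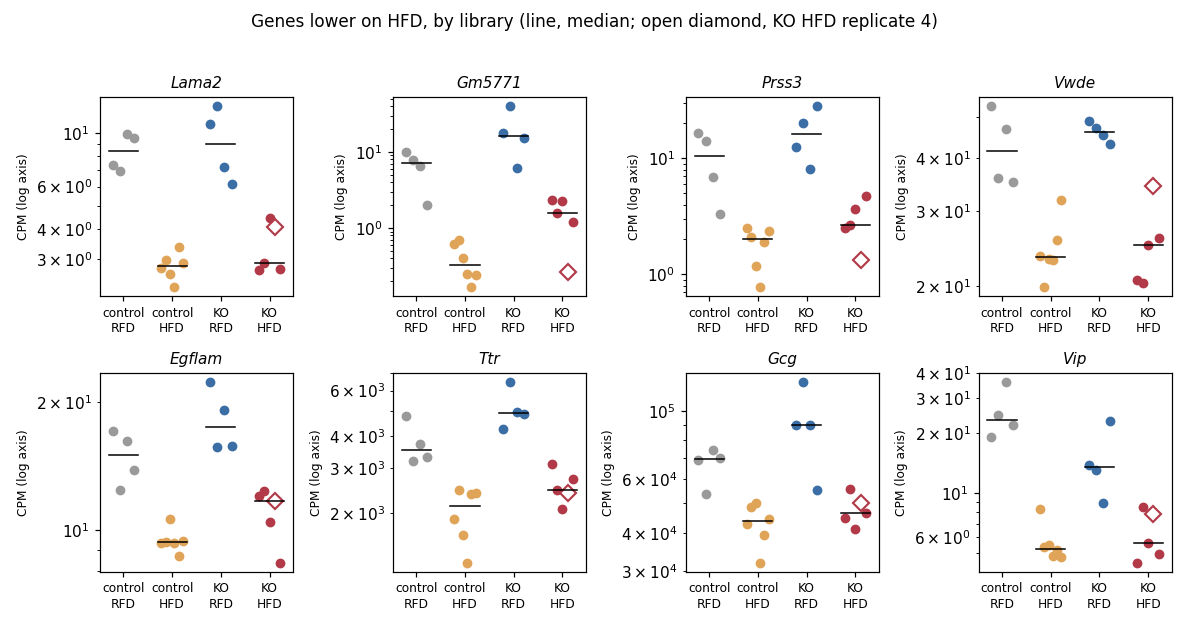
CPM (log axis) of 8 genes that were lower on HFD, in each of the 19 libraries, by group; the line is the group median and the open diamond is KO HFD 4. In Lama2, Gm5771, Prss3, Vwde, Egflam, Ttr and Vip all 5 KO HFD points lie below all 4 KO RFD points, and the control groups show the same order; Gcg overlaps by 1 pair of libraries.

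These lower genes moved in the same direction in control islets, which share no library with the KO groups. Of the 10 genes that fell without KO HFD 4, 9 were also lower in controls, 8 of them at an unadjusted p under 0.05. Over all genes, 2.71% were lower in controls at that p. With all 9 KO libraries, 10479 of 17254 genes had the same sign in KO and control islets. In 7 of the 10, KO HFD 4 lay below the KO RFD range. For the 7 genes that passed the test in controls (0.0406% of those tested, 0.0058% counting the 1 that rose), KO HFD 4 was nearer to the control HFD mean than to the control RFD mean in 6, the exception being Pgm5, with 1.28 CPM. The other KO HFD libraries were nearer to control HFD in 4 to 6 of the 7, and the KO RFD libraries in 1 or 2. KO HFD 4 thus read as HFD in this small set while it read as control in the genes that differ by genotype.

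Stk32b, a protein kinase, was the 1 gene that rose in controls, with 8.11 to 21.9 CPM on HFD and 1.84 to 6.53 CPM on RFD (log2 fold change 1.76 ± 0.30, adjusted p = 0.0393). In KO islets it gave 7.37, 6.66, 10.4, 9.58 and 14.6 CPM on HFD and 9.21, 7.88, 8.45 and 13.0 CPM on RFD, with full overlap. The log2 fold change there was 0.01 ± 0.30, and the difference between genotypes without KO HFD 4 was -1.74 ± 0.44 (unadjusted p = 0.00078, not called).

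Of 17 tested genes of peptide hormones other than insulin, 5 were lower and none higher at an unadjusted p under 0.05 in the KO islets, where 2.52% of all genes were lower, and none was called. Their median log2 fold change was -0.18, and 5 were positive, among them Chgb, chromogranin B, at 0.33 ± 0.24 and Cck, cholecystokinin, at 1.16 ± 1.01. Gcg, glucagon, gave 44668, 55622, 41236, 50010 and 46298 CPM in KO HFD and 89799, 124190, 89678 and 55093 CPM in KO RFD. The lowest RFD library, KO RFD 4, lay just below the highest HFD library. The log2 fold change was -0.92 ± 0.18 (adjusted p = 0.0946; 0.0531 without KO HFD 4) and -0.64 ± 0.17 in controls. Vip, vasoactive intestinal peptide, gave 4.47, 8.46, 5.62, 7.86 and 4.92 CPM against 13.9, 13.1, 8.87 and 22.9 CPM, a log2 fold change of -1.23 ± 0.25 (adjusted p = 0.125). In controls Vip fell by more, -2.18 ± 0.24, and the difference between genotypes was 0.85 ± 0.36 on the log2 scale without KO HFD 4 (unadjusted p = 0.029, not called). Tac1, the precursor of substance P, was below 1 CPM in all 5 KO HFD libraries and 0.920 to 3.05 CPM in KO RFD (log2 fold change -1.58 ± 0.41, adjusted p = 0.397).

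Leaving out KO HFD 4 raised the number of called genes from 2 to 27, of 16860 tested: 17 rose (0.101%) and 10 fell (0.0593%), together 0.16% of genes. The groups of 4 and 4 then did not overlap in 3.49% of genes. KO HFD 4 was singled out by its expression profile, with earlier results of these data known. The p-values without it follow that choice and do not allow for it. In the control islets 11 of the 17 higher genes were also higher, but only P3h2 had an unadjusted p under 0.05, where 2.93% of all genes were higher. The test of the difference between genotypes called none of the 17 (adjusted p for Rgs16, the smallest of all genes, 0.316). At an unadjusted p under 0.05 it gave 15 of the 17, and 3.16% of all genes; the 17 were chosen on the same KO values, so nothing is read from that count. In KO HFD 4 itself, 6 of the 17 lay within the KO RFD range, 9 below it and 2 above it.

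**Figure D3:**
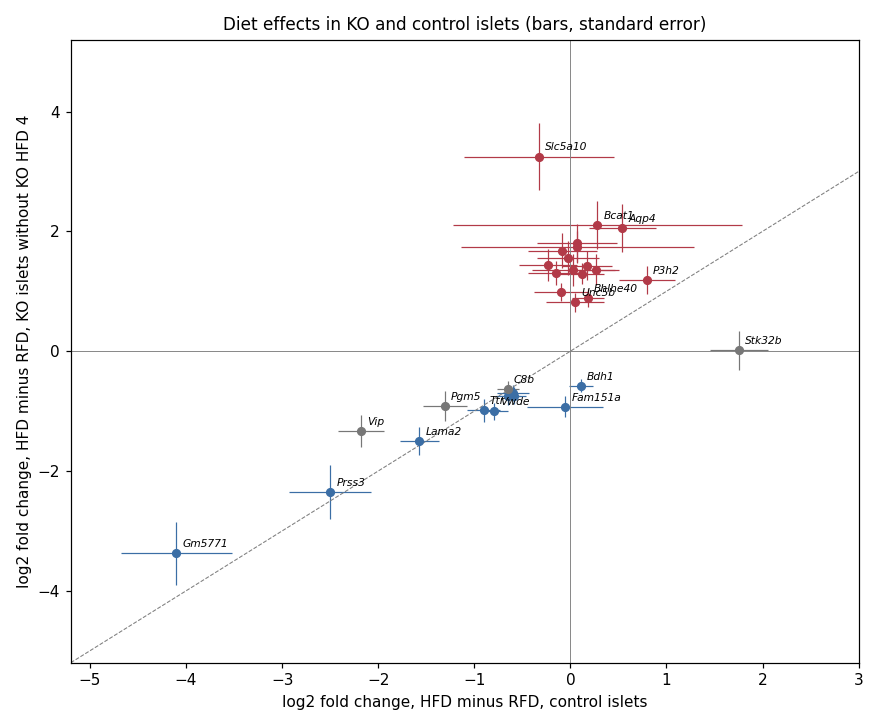
Log2 fold change of HFD against RFD in control islets (x axis) and in KO islets without KO HFD 4 (y axis), with standard errors, for the 27 genes called in the KO islets (red higher, blue lower) and the genes called in controls only (grey); the dashed line marks equal change and some labels are left out for space. Lama2, Prss3 and Gm5771 lie near the dashed line, while most red points lie near 0 on the control axis. Stk32b, at 1.76 in controls and 0.01 in KO islets, is the reverse case.

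Of the 17, 5 are known as glucose or carbohydrate responsive genes: Txnip, Klf10, Rgs16, Pfkfb3 and Bhlhe40. They were grouped after the values were seen. The share of such genes among all tested was not counted, so nothing is read from their number. Txnip, thioredoxin-interacting protein, which limits glucose uptake and binds thioredoxin, lies on chromosome 3 from 96557957 to 96561883. It gave 1913, 1938, 1822, 317 and 772 CPM in KO HFD 1 to 5 and 495, 484, 364 and 669 CPM in KO RFD. The 4 other HFD libraries were above every RFD library, and KO HFD 4 was below all of them. The log2 fold change was 1.43 ± 0.39 with all 9 (adjusted p = 0.417) and 1.68 ± 0.29 without KO HFD 4 (0.0208), against -0.08 ± 0.36 in controls, where HFD and RFD libraries read 209 to 499 and 257 to 432 CPM. The difference between genotypes without KO HFD 4 was 1.76 ± 0.38 (unadjusted p = 0.00017, adjusted p = 0.416, not called). With all libraries the unadjusted p of that difference was 0.0086, also not called.

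The promoter of Txnip is shown because it holds the paired sequence that ChREBP binds, and that of Arrdc4, its paralog, because it holds a single E-box. Each run is the 250 bases before the RefSeq start site (GRCm38.p6), 5′ to 3′ on the gene's strand, chr3:96557707-96557956 on the plus strand for Txnip and chr7:68749239-68749488 on the minus strand for Arrdc4. Capitals mark matches on either strand to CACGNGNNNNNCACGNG, which begins at base -85 in Txnip, or to the E-box CACGTG, which begins at -193 in Arrdc4.
Txnip: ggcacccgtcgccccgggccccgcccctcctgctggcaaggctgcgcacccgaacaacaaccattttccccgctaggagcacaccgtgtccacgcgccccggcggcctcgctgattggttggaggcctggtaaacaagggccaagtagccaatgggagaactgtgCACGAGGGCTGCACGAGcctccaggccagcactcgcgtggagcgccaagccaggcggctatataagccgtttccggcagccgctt
Arrdc4: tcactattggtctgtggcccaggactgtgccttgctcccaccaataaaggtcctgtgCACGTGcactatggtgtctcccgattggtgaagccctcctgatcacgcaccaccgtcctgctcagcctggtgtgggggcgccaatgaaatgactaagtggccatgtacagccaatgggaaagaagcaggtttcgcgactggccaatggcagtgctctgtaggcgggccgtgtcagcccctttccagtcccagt
The longer motif, whose letters were chosen after the Txnip promoter was seen, occurs in 0.0457% of 32851 mouse promoter windows of this length and the E-box in 6.02%. Of the 17 higher genes, 11 had a promoter entry; Txnip held the longer motif and 1 of the 2 entries of Pfkfb3 held an E-box, at base -53. A match describes letters only.

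Klf10, a zinc finger repressor induced by glucose and by TGF-beta, gave 57.8, 72.1, 53.7, 20.6 and 38.8 CPM in KO HFD and 24.9, 16.1, 24.9 and 24.6 CPM in KO RFD. All HFD libraries but KO HFD 4 were above every RFD library. Its log2 fold change was 1.10 ± 0.24 with all 9 libraries (adjusted p = 0.23) and 1.29 ± 0.18 without KO HFD 4 (0.00823), against 0.12 ± 0.23 in controls. Rgs16, a regulator of G protein signalling, gave 211, 204, 172, 40.6 and 125.5 CPM against 76.9, 66.2, 57.6 and 87.1 CPM. KO HFD 4 was again the lowest of all 9. The log2 fold change was 1.06 ± 0.31 with it (adjusted p = 0.48) and 1.31 ± 0.19 without it (0.00823). Controls gave 37.5 to 74.8 CPM with no order by diet.

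Pfkfb3, which makes the allosteric activator of phosphofructokinase, gave 25.4, 46.2, 20.9, 7.54 and 11.1 CPM on HFD and 9.43, 8.78, 6.66 and 10.4 CPM on RFD. Its log2 fold change was 1.33 ± 0.35 with all 9 libraries (adjusted p = 0.397) and 1.55 ± 0.29 without KO HFD 4 (0.0366). Bhlhe40, a transcriptional repressor tied to the circadian clock, gave 36.3, 47.8, 43.1, 24.4 and 36.8 CPM against 21.0, 25.7, 17.6 and 24.9 CPM. This was a log2 fold change of 0.88 ± 0.15 without KO HFD 4 (0.0208). In both genes the 4 HFD libraries other than KO HFD 4 were above all RFD libraries. Arrdc4, named after its values were seen, gave 78.1, 96.01, 57.9, 25.4 and 35.7 CPM against 35.8, 38.4, 27.0 and 35.5 CPM. KO HFD 5 overlapped the RFD group, and the log2 fold change without KO HFD 4 was 0.97 ± 0.20 (adjusted p = 0.0531). Controls went slightly the other way, -0.35 ± 0.24.

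A list of 19 carbohydrate response genes was drawn up after these values were seen, so it carries no test. With all 9 libraries 7 of the 19 were higher and none lower at an unadjusted p under 0.05, where 2.96% of all genes were higher. The list includes the genes that prompted it, among them Txnip, Klf10, Rgs16, Pfkfb3, Bhlhe40 and Arrdc4, so nothing is read from that count. The median log2 fold change of the list was 0.08, beside 0.00 over all genes. Pklr, the pyruvate kinase of liver and islet, was the seventh, and it differed from the others in that KO HFD 4 was high. It gave 24.9, 37.7, 30.3, 31.7 and 21.9 CPM on HFD and 26.6, 23.9, 17.4 and 16.2 CPM on RFD. The lipogenic targets Fasn and Acaca were at log2 fold changes of 0.00 ± 0.11 and 0.08 ± 0.12. Mlxipl itself was at 0.24 ± 0.21. In controls 1 of the 19 was higher and none lower.

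**Figure D4:**
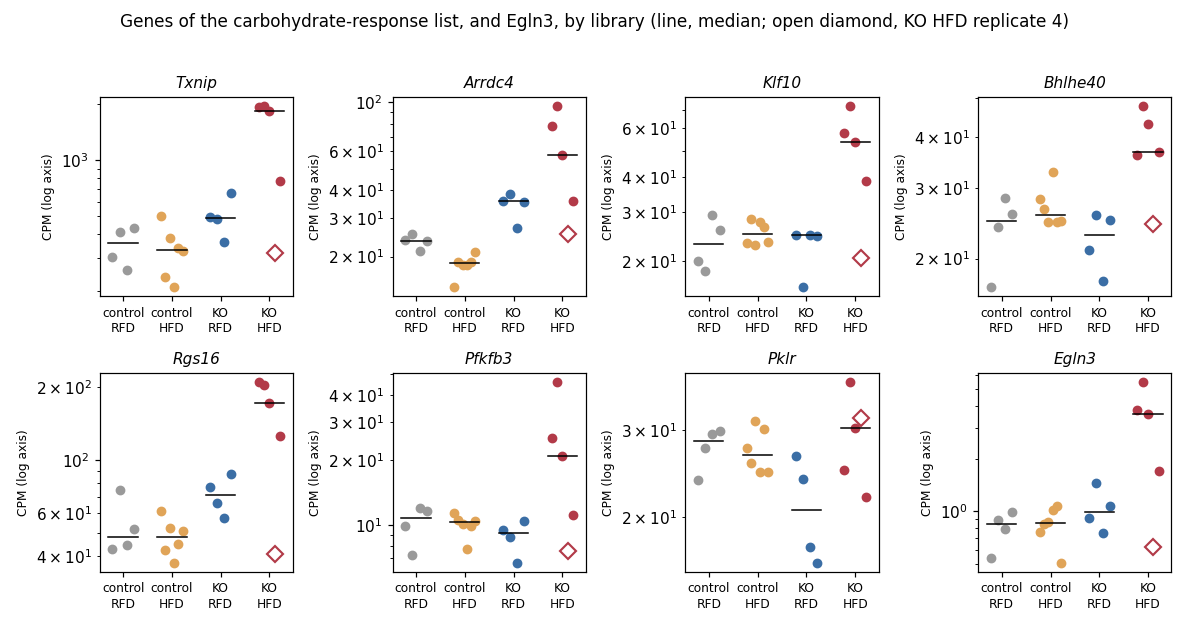
CPM (log axis) of 7 genes of the carbohydrate-response list and of Egln3 in each of the 19 libraries, by group; the line is the group median and the open diamond is KO HFD 4. In every panel except Pklr the diamond lies within or below the range of the KO RFD points while most other KO HFD points lie above them; KO HFD 5 is the lowest of those 4 in Txnip, Arrdc4, Klf10, Rgs16, Pfkfb3 and Egln3.

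The higher genes were not even among the 4 HFD libraries. KO HFD 5 was the lowest of them in Txnip (772 CPM), Pfkfb3 (11.1 CPM) and Egln3 (1.70 CPM). It was also lowest in Slc5a10, a sodium-coupled sugar transporter, with 18.1, 47.1, 18.1, 0.524 and 1.52 CPM on HFD and 1.71 to 2.84 CPM on RFD. For Slc5a10 only 3 of 5 libraries were high, and its log2 fold change of 3.25 ± 0.57 without KO HFD 4 (adjusted p = 0.0232) rested on them. Egln3, a prolyl hydroxylase that marks hypoxia-inducible factor for decay, gave 3.78, 5.51, 3.59, 0.628 and 1.70 CPM against 0.755 to 1.46 CPM (log2 fold change 1.80 ± 0.32 without KO HFD 4, adjusted p = 0.0308).

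Areg, Bcat1, Crmp1, Unc5b and Scarf2 were higher in KO than in control islets already on RFD (each at an adjusted p of 0.05 or less), and in these KO HFD 4 read as control. Areg, amphiregulin, a ligand of the EGF receptor, gave 48.5, 35.5, 20.9, 0.0524 and 31.3 CPM in KO HFD and 11.2, 10.9, 8.26 and 10.51 CPM in KO RFD, while no control library exceeded 0.408 CPM. Its log2 fold change without KO HFD 4 was 1.74 ± 0.26 (adjusted p = 0.00823). Bcat1, the cytosolic branched-chain aminotransferase, gave 41.2, 30.8, 30.5, 0.262 and 18.9 CPM against 2.69, 6.78, 7.27 and 11.1 CPM. Its log2 fold change was 1.78 ± 0.70 with all 9 libraries (adjusted p = 0.752) and 2.10 ± 0.40 without KO HFD 4 (0.0366). The 4 other HFD libraries were above all RFD libraries in both. Crmp1, a microtubule-associated collapsin response mediator, gave 152, 117, 157, 37.3 and 244 CPM against 75.8 to 93.3 CPM (0.99 ± 0.15 without KO HFD 4, adjusted p = 0.00823).

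Unc5b, a netrin receptor, gave 90.0, 67.5, 64.3, 13.6 and 53.4 CPM against 28.4 to 47.7 CPM (log2 fold change 0.82 ± 0.16 without KO HFD 4, adjusted p = 0.0413). Scarf2, a scavenger receptor family member, gave 67.5, 109, 74.9, 7.59 and 33.8 CPM against 20.2 to 39.6 CPM (1.36 ± 0.27 without KO HFD 4, adjusted p = 0.0428). Stc2, stanniocalcin 2, a secreted target of ATF4, followed the same order with 17.3, 24.8, 14.0, 0.209 and 8.87 CPM against 5.77 to 8.13 CPM but was not called (1.27 ± 0.30 without KO HFD 4, adjusted p = 0.143). In the controls, where Areg and Bcat1 were near 0, their diet effect could not be measured with any precision (0.07 ± 1.21 and 0.28 ± 1.502).

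Rsph4a and Ttc25 both encode parts of the motile cilium, a radial spoke protein and a dynein docking protein. Rsph4a gave 4.74, 6.22, 5.37, 3.77 and 4.13 CPM on HFD and 3.14, 1.66, 1.13 and 2.15 CPM on RFD, with KO HFD 4 high and no overlap. Its log2 fold change was 1.28 ± 0.25 with all 9 (adjusted p = 0.0926) and 1.36 ± 0.26 without KO HFD 4 (0.0366). Ttc25 gave 9.67, 27.7, 17.5, 5.34 and 9.36 CPM against 4.37 to 7.08 CPM, with KO HFD 4 inside the RFD range (1.44 ± 0.27 without KO HFD 4, adjusted p = 0.0366). Aqp4, a water channel, gave 31.3, 74.5, 48.8, 34.5 and 14.2 CPM against 7.89, 15.3, 5.62 and 12.2 CPM. KO HFD 4 was high here too, and the log2 fold change was 1.996 ± 0.38 with it (adjusted p = 0.0852) and 2.05 ± 0.40 without it (0.0413). P3h2, a collagen prolyl hydroxylase, was the 1 higher gene that also differed in controls at an unadjusted p under 0.05 (0.79 ± 0.29 in controls, 1.19 ± 0.24 in KO without KO HFD 4). Zfp189, a zinc finger protein, gave 6.01 to 17.4 CPM in the 4 HFD libraries, 4.82 CPM in KO HFD 4 and 2.86 to 5.07 CPM on RFD.

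In 3 of the 10 lower genes KO HFD 4 was not low with its group but read within the control range. Fam151a gave 57.7, 45.9, 48.8, 279 and 45.7 CPM in KO HFD against 133, 65.4, 86.5 and 92.2 CPM in KO RFD and 277 to 455 CPM in all controls. The log2 fold change turned from 0.02 ± 0.41 with all 9 libraries to -0.93 ± 0.18 without KO HFD 4 (adjusted p = 0.0396). Bdh1, the mitochondrial enzyme that interconverts ketone bodies, gave 6.86, 6.55, 6.77, 10.2 and 7.29 CPM against 9.38 to 11.2 CPM (-0.57 ± 0.11 without KO HFD 4, adjusted p = 0.0366). Dpp10, an auxiliary protein of potassium channels, gave 14.7 to 21.3 CPM in the 4 libraries, 32.7 CPM in KO HFD 4 and 27.3 to 31.0 CPM on RFD (-0.70 ± 0.14 without KO HFD 4, adjusted p = 0.0414).

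The reverse also occurred: in some genes KO HFD 4 enlarged the change. Cyp4f39 and Psd4 were apart between the HFD and RFD libraries with or without it, but changed by less without it. Cyp4f39, a cytochrome P450, gave 7.19, 7.97, 6.96, 28.0 and 11.1 CPM against 4.59 to 6.12 CPM in KO RFD, with controls at 14.3 to 39.2 CPM. Psd4, an exchange factor for ARF6, gave 15.6, 13.8, 14.9, 39.4 and 22.4 CPM against 7.25 to 12.7 CPM. Their log2 fold changes fell from 1.22 ± 0.35 to 0.64 and from 1.06 ± 0.28 to 0.70 when KO HFD 4 was left out, and neither was called either way.

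Acinar genes were the list with the largest median change with all 9 libraries; without KO HFD 4 the 9 lymphocyte genes were slightly above them, at 1.28. Of 28 tested acinar genes 19 were higher and 2 lower at an unadjusted p under 0.05, the median log2 fold change was 1.27, and no higher member was called. Without KO HFD 4 the median was 1.24, and in controls 1.17 with 20 higher and 3 lower, where 2.93% of all genes were higher and 2.71% lower. Sycn, syncollin of the zymogen granule, gave 405, 292, 232, 286 and 471 CPM in KO HFD and 55.9, 48.7, 113 and 280.2 CPM in KO RFD, a log2 fold change of 1.43 ± 0.44. Prss2, an abundant trypsinogen, gave 1460, 1075, 891, 1280 and 2041 CPM against 193, 161, 466 and 1385 CPM. KO RFD 4 read like the HFD libraries in both. The list's share of all counts was 1.98% ± 0.58 (SD, n = 5) on HFD and 0.816% ± 0.792 (n = 4) on RFD, and an exact permutation test over the 9 libraries gave a two-sided p of 0.0635 (0.317 adjusted over 5 library measures). The RFD shares were 0.303%, 0.281%, 0.712% and 1.97%, so 3 RFD libraries were below every HFD library (1.42% to 2.91%) and KO RFD 4 lay inside the HFD range.

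Within this list Gm5771 and Prss3 were lower in KO and control islets alike. Both were lower in all 5 HFD libraries, while 19 others were higher at an unadjusted p under 0.05. Prss1, another trypsinogen of the cluster, was low throughout, at 0.0524 to 1.57 CPM on HFD and 0.159 to 1.66 CPM on RFD (-0.64 ± 0.76), and in controls it was lower too, at -2.43 ± 0.86 (unadjusted p = 0.0106). Try4 and Try5 were at 0.19 ± 0.55 and 0.16 ± 0.48. Rbpjl, a transcription factor of acinar cells, gave 12.4 to 22.4 CPM on HFD and 2.81 to 9.07 CPM on RFD with no overlap (log2 fold change 1.44 ± 0.34, adjusted p = 0.24). In bulk libraries, more acinar cells and more acinar RNA per cell cannot be told apart.

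Alpha cell genes were lower on HFD as a group. Of 12 tested, 11 had a negative log2 fold change, 7 were lower and none higher at an unadjusted p under 0.05 (2.52% of all genes were lower), and the median was -0.53. It was -0.53 in controls too, with 8 lower. Beside Gcg and Ttr, Irx2, a transcription factor of alpha cells, gave 32.1 to 52.2 CPM against 38.4 to 65.8 CPM (-0.54 ± 0.16). Only Ttr was called, and only without KO HFD 4. The acinar share was higher in the same libraries. The acinar score was a covariate in an alternative fit only, whose values for the alpha cell genes are not given here. As a score, the mean log2 CPM of the 12 genes was 6.55 to 6.93 on HFD and 6.77 to 7.52 on RFD, where KO RFD 4 was again the library that overlapped.

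The other hormones moved less. Sst, somatostatin of delta cells, gave 3766 to 7105 CPM against 5879 to 8973 CPM (-0.50 ± 0.19, adjusted p = 0.725). Ppy was at -0.40 ± 0.29. Ins1 gave 22700 to 36962 CPM in 4 HFD libraries, 65854 CPM in KO HFD 4 and 29315 to 35465 CPM on RFD (0.20 ± 0.33; -0.09 ± 0.31 without KO HFD 4). Ins2 and Iapp were at -0.25 ± 0.16 and 0.22 ± 0.14, and Ucn3, a marker of mature beta cells, at -0.07 ± 0.15. Of 27 beta cell maturity genes, 1 (Rgs16) was higher and 2 lower at an unadjusted p under 0.05, beside 2.96% and 2.52% of all genes. Without KO HFD 4, 1 was higher and 7 lower, beside 3.9% and 3.23% of all genes, and none of the 7 was called. Slc30a8, the zinc transporter of insulin granules, and Slc2a2, the glucose transporter GLUT2, were named after their values were seen. Without KO HFD 4, Slc30a8 was at -0.53 ± 0.11 (adjusted p = 0.0531) and Slc2a2 at -0.49 ± 0.17 (0.43). With all libraries Slc30a8 was at -0.02 ± 0.26 and Slc2a2 at 0.11 ± 0.32.

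The integrated stress response is the program by which ATF4 raises amino acid and stress genes. None of the 35 integrated stress response genes had an unadjusted p under 0.05 with all 9 libraries, and their median was 0.09. Without KO HFD 4, 9 were higher and none lower, the median was 0.24 and 32 of 35 were positive, where 3.9% of all genes were higher and 3.23% lower. None was called. In controls 2 were higher and none lower, the median was 0.18 and 25 were positive. The list score was 4.18 in KO HFD 4 and 4.41 on average in control HFD, so leaving out KO HFD 4 raised the KO HFD values. Slc7a3, a cationic amino acid transporter named after its values were seen, had the smallest p of the 35 without KO HFD 4. It gave 44.5, 48.1, 46.0, 0.969 and 47.0 CPM on HFD and 13.0, 23.4, 24.7 and 38.3 CPM on RFD (0.89 without KO HFD 4, adjusted p = 0.126). Nupr1, a stress-induced chromatin protein, gave 340.4, 198, 171, 67.7 and 273 CPM against 71.9 to 150.4 CPM (0.77 ± 0.40 with all libraries, and 1.03 ± 0.40 in controls). Ddit3, or CHOP, and Trib3 were at 0.22 ± 0.15 and 0.50 ± 0.34 without KO HFD 4, Fgf21 at 0.44 ± 0.52 and Gdf15 at 0.21 ± 0.35.

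**Figure D5:**
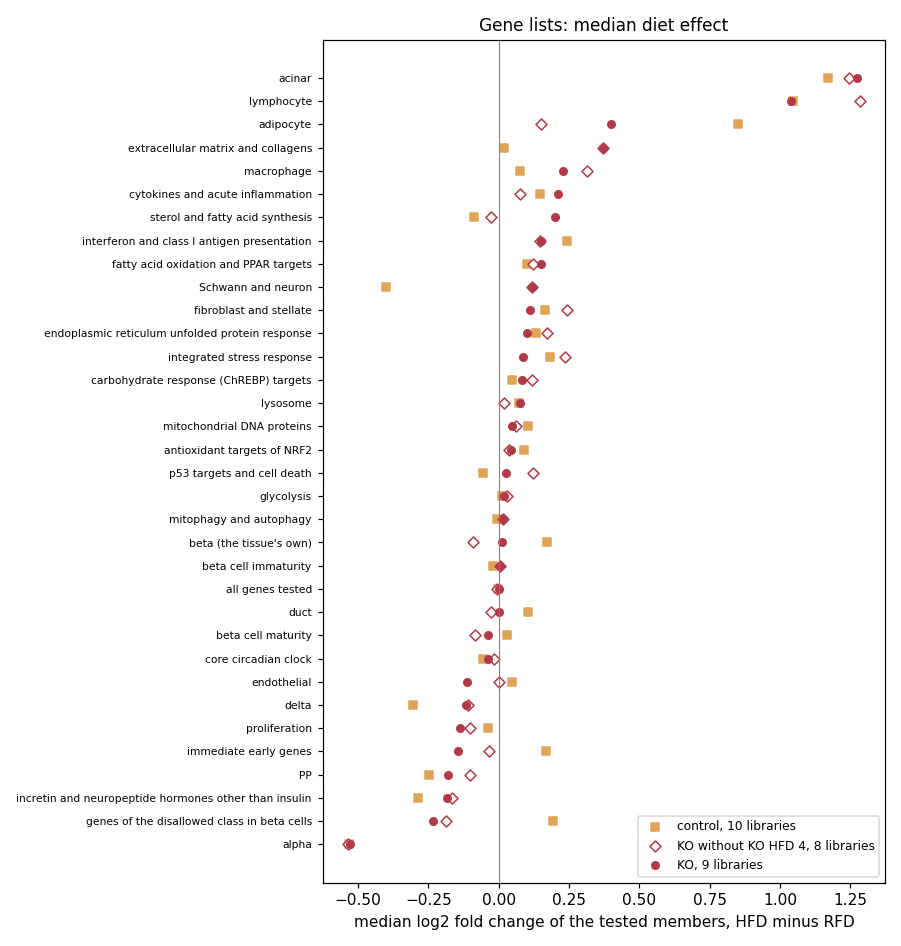
Median log2 fold change, HFD minus RFD, of the tested members of each gene list in KO islets with 9 libraries (filled circles), KO islets without KO HFD 4 (open diamonds) and control islets (squares). The acinar list lies at 1.27 and the alpha list at -0.53 in KO islets, with the control value close by; the lymphocyte median rests on 9 genes and the adipocyte median on 3.

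No gene of the remaining lists was called with all 9 libraries. Apart from the lymphocyte list, their medians ran from -0.23 for 14 genes of the disallowed class, which beta cells normally keep silent, to 0.40 for 3 adipocyte genes, beside 0.00 over all genes. The disallowed class was at -0.19 without KO HFD 4 and at 0.19 in controls. Of 24 fatty acid oxidation and PPAR target genes, 4 were higher and none lower at an unadjusted p under 0.05 (median 0.15), where 2.96% and 2.52% of all genes were, and in controls 3 were higher and none lower. Cpt1a, which admits fatty acids to mitochondria, led them with 74.7, 76.4, 62.9, 83.2 and 76.1 CPM against 63.0, 51.9, 49.3 and 49.9 CPM (0.48 ± 0.13, adjusted p = 0.406). KO HFD 4 was the highest of its group there. Of the 25 mitophagy and autophagy genes, 20 lysosome genes and 8 tested mitochondrial DNA genes, 0, 1 and 0 had an unadjusted p under 0.05. The 1 was Gusb, the lysosomal glucuronidase, at 0.19, and the medians were 0.02, 0.08 and 0.05.

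Of 17 matrix genes, 3 were higher and none lower at an unadjusted p under 0.05 (2.96% of all genes were higher), the median was 0.37, and in controls none was higher and 1 lower. The 3 were led by Fn1, fibronectin, with 2.12, 5.19, 5.56, 0.812 and 2.13 CPM against 0.496 to 1.64 CPM. Of 22 interferon genes, 2 were higher by the same measure, Ifit3 (0.85 ± 0.33) and Gbp3 (0.52 ± 0.22), and in controls 6 were. Sterol and fatty acid synthesis genes had a median of 0.20 with KO HFD 4 and -0.03 without it, so that library set the sign.

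Ighm, the IgM heavy chain, gave 361 CPM in KO HFD 1 and 85.0 CPM in KO RFD 1 but 5.22 to 7.89 CPM in the other 7 KO libraries, and the lymphocyte score, a mean log2 CPM, was 3.45 in KO HFD 1 and 1.69 in KO RFD 1 against -0.08 to 0.94. The median log2 fold change of the 9 lymphocyte genes was 1.04, with 1 higher at an unadjusted p under 0.05. It was 1.28 without KO HFD 4 and 1.05 in controls. Ctss, cathepsin S of macrophages, gave 51.6, 39.2, 43.0, 43.0 and 33.5 CPM on HFD and 32.8, 24.5, 28.8 and 24.7 CPM on RFD with no overlap (0.61 ± 0.14, adjusted p = 0.235). Of 14 macrophage markers 12 were positive, and 1 was higher and 1 lower at an unadjusted p under 0.05, beside 2.96% and 2.52% of all genes.

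Sequencing lane, read from the deposited names, was not balanced: lane 7 held 2 HFD and 3 RFD libraries and lane 8 held 3 HFD, among them KO HFD 4, and 1 RFD library. Within lanes 7 and 8 the mean log2 difference was -1.50 and -1.77 for Lama2, -2.76 and -5.22 for Gm5771, -0.69 and -1.50 for Ttr, and -0.75 and -1.35 for Gcg. For Txnip it was 1.299 and 1.10, for Klf10 0.93 and 1.41, for Rgs16 1.16 and 0.77, and for Pfkfb3 0.94 and 1.14. These kept their sign in both lanes. For Areg it was 1.97 and -1.31, for Unc5b 0.95 and -0.29 and for Fam151a -0.99 and 0.39, which turned in the lane that holds KO HFD 4. The acinar share was higher on HFD by 1.53 and 1.33 percentage points.

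The number of called genes also moved with other libraries. Leaving out KO RFD 4, the RFD library with the high acinar share, gave 31 called genes in place of 2 with the other 8 libraries, and 65 in place of 27 without KO HFD 4 as well. Leaving out KO HFD 1, KO HFD 2 or KO RFD 2 gave 0 in the comparison that held KO HFD 4. Without KO HFD 4, Klf10 and Vwde were called in all 17 alternative fits, Rgs16 in 16, Areg in 15, Lama2 and Crmp1 in 14 and Gm5771 in 13, while Txnip was called in 9, Pfkfb3, Bcat1 and Eef1a2 in 6, and Slc5a10 and Bdh1 in 5. With all 9 libraries, Lama2 and Gm5771 were each called in 10 of 18 alternative fits. In the comparison without KO HFD 4, the acinar score as a covariate gave 6 called genes and lane as a covariate 11, in place of 27. In counts simulated for all 19 Clec16a libraries, 84% of 100 genes changed 2-fold and 98% of 100 changed 4-fold in KO HFD were called. No simulated library stood apart as KO HFD 4 did, and every changed gene averaged above 1 CPM. These rates therefore do not say how many diet effects the comparison with all 9 libraries missed.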

How the data were processed

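RNA was sequenced as paired reads from 19 Clec16a islet libraries. The authors deposited, per gene, whole-number raw counts beside TPM and CPM, per the file headers; the deposited CPM equalled the count over the library's total. The TPM the authors deposited were used only to describe levels per length and are not printed. Per the submitters' processing notes, FastQC, STAR 2.6.1b, RSEM 1.3.1, featureCounts, MultiQC and DESeq2 were used with build GRCm38; which program made the counts, and whether it used strand, is not given in the sources used here, so overlapping genes cannot be told apart. Positions come from GENCODE M21, which held 55141 of the 55487 gene identifiers.

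From the deposited counts, genes were kept by edgeR's filter for low counts, scaled by TMM and fitted with 1 mean for each of the 4 groups; the quasi-likelihood test (edgeR 4.0.16, R 4.3.3) gave log2 fold changes, standard errors and Benjamini-Hochberg adjusted p-values, and a gene is called at 0.05 or less. CPM printed here use TMM-scaled totals. The fit was repeated on 18 libraries without KO HFD 4. List scores are mean log2 CPM with a prior count of 2. Library measures were compared by exact permutation tests. The alternatives used DESeq2 1.42.0, limma 3.58.1, other filters, scalings and covariates. The method was tested on simulated data.

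Named genes were Clec16a, all called genes, the 8 per direction with the largest non-overlapping change at an unadjusted p under 0.01 and at least 5 CPM, the 3 members per list with the smallest p, and 15 fixed hormone and stress genes; Arrdc4, Pklr, Mlxipl, Fasn, Acaca, Prss1, Prss2, Try4, Try5, Ighm, Slc7a3, Slc30a8, Slc2a2, Gusb, Chgb, Cck and Xist were added after their values were seen. Some genes that the rule names are not reported here. The comparison, the members and the lists were chosen with earlier results of these data known. Replicate numbers did not pair the KO libraries: deviations of same-numbered HFD and RFD libraries correlated at -0.084 to 0.094, and 0 of 4 correlated best with its own number.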

Additional observations from a re-analysis of the deposited data

Results flagged for a closer look

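A sample is listed here when its gap to the nearest library of its group, divided by the range of the group, passes Dixon's 95% critical value. Of 218 groups of values checked (71 genes, 33 list scores and 5 library measures, each in KO HFD and KO RFD), 26 passed, and 16 of the 26 were the library labelled KO HFD 4. Chance gives about 1 in 20 for a group chosen beforehand. The 71 genes include those called once KO HFD 4 was left out, and some list scores share genes. That rate is therefore no yardstick here, and nothing is read from the number of flags.

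KO HFD 4 was the lowest of its group in log2 CPM of Slc7a3 (gap ratio 0.980), Gdf15 (0.910), Areg (0.861), Trib3 (0.843), Bcat1 (0.840), Fgf21 (0.838), Aldh1a3 (0.807), Ddit3 (0.782), Stc2 (0.773) and Unc5b (0.724), and in the scores of the integrated stress response (0.867), p53 targets and cell death (0.756) and beta cell immaturity (0.753). It was the highest in Trpm5 (0.875), Fam151a (0.871) and Bdh1 (0.757).

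Other KO HFD libraries stood apart in single genes or scores. KO HFD 1 was highest in Ighm (0.918), Iapp (0.734) and the lymphocyte score (0.712) and KO HFD 5 in Rbpjl (0.797) and Muc1 (0.760). Among KO RFD libraries, KO RFD 2 was lowest in Klf10 (0.972). KO RFD 1 was highest in Ighm (0.944) and the macrophage score (0.858) and lowest in the integrated stress response score (0.854), and KO RFD 3 was highest in the proliferation score (0.909).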

How the results depend on the processing

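The number of genes called with all 9 KO libraries (2) was 6 with no filter, 42 by DESeq2's Wald test, 10 by limma voom with library quality weights (KO HFD 4 had the lowest weight, 0.266, and KO RFD 4 0.443), 1 with the acinar score as covariate and 0 with only the KO groups fitted; leaving out 1 library gave 0 to 31. Without KO HFD 4 (27), the Wald test gave 101, lane as covariate 11, the acinar score 6 and the KO groups alone 6, and leaving out 1 more library 5 to 65: 65 without KO RFD 4, 51 without KO HFD 5, 5 without KO HFD 2. The interaction (0) was 20 by the Wald test. The control diet effect (7) was 54 by the Wald test, 23 by limma voom, 3 with the replicate block and 3 with lane; leaving out 1 library gave 3 to 12. The replicate block, fitted although the numbers do not pair the libraries, gave 2 calls with all 9 KO libraries and 28 without KO HFD 4. The cause of these moves was not tested.

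Of the 71 genes followed across these fits, signs turned in those below, none of them called with all 9 libraries. Values within lanes are given with the results. Some genes named after their values were seen, such as Slc30a8 and Slc2a2, were not among the 71. Slc2a2 also turned, from 0.11 with all 9 libraries to -0.49 without KO HFD 4. With limma voom, Fam151a was at -0.72, Stk32b at -0.0495, Ins1 at -0.0784, Trpm5 at -0.44 and Aldh1a3 at 0.39. With the replicate block, Fam151a was at -0.18, Stk32b at -0.0438, Fgf21 at -0.0586 and Aldh1a3 at 0.44. With lane, Fam151a was at -0.12, Ucn3 at 0.0023 and Aldh1a3 at 0.0187. With the acinar score, Stk32b was at -0.32, Ins1 at -0.0849, Fgf21 at -0.0823 and Aldh1a3 at 0.10. Aldh1a3 was at 0.0049 with DESeq2 size factors, 0.0001 with no filter and 0.0033 by the Wald test. Leaving out 1 library moved Fam151a from -0.93 to 0.23, Stk32b from -0.18 to 0.19, Ins1 from -0.0949 to 0.35, Ucn3 from -0.15 to 0.0138, Aldh1a3 from -0.34 to 0.91, Gdf15 from -0.31 to 0.21, Ddit3 from -0.10 to 0.22, Fgf21 from -0.0575 to 0.44, Trpm5 from -0.79 to 1.34 and Ighm from -1.90 to 3.77.

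Of the library measures, HFD minus RFD turned in sign within lane 8 for total counts (12584000), the mitochondrial share (-0.161 percentage points) and the insulin share (0.533), and within lane 7 for detected genes (-883); without 1 library the ranges were -12119000 to 631670 counts, -171.5 to 500 genes and -0.0637 to 0.335 percentage points of mitochondrial counts. Genes that read near 0, such as Areg in controls (SE 1.21), have wide errors.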

Other observations

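The genes with an unadjusted p under 0.001 for diet in the 9 KO libraries numbered 43, and 40 of them had the same sign in the control comparison, which shares no library with it; across these genes Pearson's r of the log2 fold changes was 0.80 and Spearman's rho 0.87, as a description, since genes are not independent replicates. Over all 17254 genes 10479 had the same sign, with Pearson's r of -0.31 and Spearman's rho of 0.27. The 43 genes were chosen with KO HFD 4 in the HFD group, a library that read as control in the genes that differ by genotype. Of the 27 genes called without KO HFD 4, 20 had the same sign in controls, with Pearson's r of 0.80 and Spearman's rho of 0.63.

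Higd1a, a mitochondrial protein of the hypoxia-inducible gene family, gave 9.63, 8.46, 7.003, 10.1 and 7.84 CPM in KO HFD and 12.2, 13.5, 19.4 and 16.4 CPM in KO RFD, with no overlap (log2 fold change -0.84 ± 0.20, adjusted p = 0.245). Hk1, a hexokinase normally low in beta cells, gave 11.5 to 17.5 CPM against 17.7 to 21.4 CPM, again apart (-0.40 ± 0.12), and was at -0.32 ± 0.11 in controls. Actn2, an alpha-actinin of muscle, gave 3.28 to 7.99 CPM against 0.614 to 2.36 CPM (2.18 ± 0.68). Cd72, a B cell surface protein, gave 4.86 to 9.30 CPM against 2.86 to 4.57 CPM (0.77 ± 0.21). None of the 4 was called.

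Acadl, a mitochondrial acyl-CoA dehydrogenase, was at 0.31 ± 0.11 and Slc25a20, the carnitine carrier, at 0.26 ± 0.12 in the KO islets.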
